A study of Mus musculus with 2 samples.

Results

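The genes described here are 9 inhibitors of Wnt signalling, namely Sfrp1, Sfrp2, Sfrp4, Sfrp5, Frzb, Dkk2, Dkk3, Wif1 and Apcdd1, taken by symbol from the gene tables of 2 single-cell libraries of the mouse colon. All 9 were among the 17809 genes of the wild-type library. The reporter library listed 7 of them among its 15972 genes, and Sfrp5 and Apcdd1 were not listed there. Wnt proteins bind Frizzled receptors together with Lrp co-receptors and stabilise beta-catenin in the receiving cell, and in the colon this signal maintains stem and progenitor cells at the crypt base. Sfrp proteins, Frzb and Wif1 are released from cells and bind Wnt proteins, whereas Dkk2 binds the Lrp co-receptors. Dkk3 is a divergent Dickkopf protein whose effect on Wnt signalling varies with the cell, and Apcdd1 is an inhibitor anchored in the membrane, so the word secreted does not strictly describe it.

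The wild-type library came from C57BL/6 mice, with EpCAM+ epithelial cells and EpCAM- CD45- cells sorted apart and then mixed in equal parts, and was made with version 3 of the droplet kit. The reporter library came from Pdgfra-H2B-eGFP mice, in which the Pdgfra locus drives a nuclear eGFP, and held GFP+ mesenchymal cells sorted with a viability stain alone and prepared with kit version 2. Each library pooled cells of 3 female mice aged 8 to 12 weeks, and no table assigns cells to mice. No value therefore has a replicate, and no test was made. The values were labelled raw by the depositors and are taken here as UMI counts corrected to a common depth per cell, called corrected counts below, because their totals span a narrow range and their logs equal the depositors' other values. Their total per cell ran from 6120 to 16389 (median 8972) in the 7495 wild-type cells and from 2314 to 4432 (median 3150) in the 4409 reporter cells, and the libraries shared 1 cell barcode. The kit, the mice and the sort differed together, so what each contributes to a difference between the libraries cannot be told apart, and levels of the libraries are set side by side only. Tags came from the 3' end of transcripts, so levels of different genes were compared without division by length.

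Cells were clustered without the 9 genes and without the other Wnt genes listed further on, and the clusters were named from marker genes. The names follow the study's types of fibroblast, those of the crypt top (CTFs) and those of the crypt bottom in 2 types (CBFs1 and CBFs2), with "like" added because the names were rebuilt. Of the wild-type cells, 12 classes took 6340 cells (84.6%), among them 813 CTFs-like, 1139 CBFs1-like, 506 CBFs2-like and 950 smooth muscle-like cells. Of the reporter cells, 4 classes took 4128 cells (93.6%), with 523 CTFs-like, 2640 CBFs1-like, 852 CBFs2-like and 113 immune-like cells. Pdgfra, one of the naming markers, averaged 8.62 corrected counts per cell in CTFs-like, 3.50 in CBFs2-like and 1.79 in CBFs1-like cells of the wild-type library. The same classes of the reporter library averaged 1.14, 0.454 and 0.286. The reporter CTFs-like cluster had 2 CTFs markers and 2 smooth muscle markers among its 10 leading genes, and 2 of the 3 reporter CBFs1-like clusters were led by stress or immune genes (Sbno2, Egr1 and Socs3 in one, Cxcl5 in the other). No CBFs1 marker was among the 10 leading genes of any of these 3 CBFs1-like clusters. In the largest (1108 cells, led by Sbno2), 0 of 10 CBFs1 markers reached 2-fold, and its score on these markers was 0.65. The naming thresholds were set after the clusters were seen. They left 5 wild-type clusters unnamed, with 6.44%, 5.03%, 2.35%, 1.32% and 0.267% of cells, and 2 reporter clusters with 5.22% and 1.16%. The unnamed reporter cluster of 5.22% (230 cells) carried fibroblast genes and was led by Ptprr, Agt and Nrg1. It scored highest on the CTFs markers (1.12) and next on the CBFs1 markers (0.45), short of the log2 gap of 0.7 required. Among the wild-type cells, a sub-cluster of 252 cells with Ptprr and Nrg1 lay inside the CTFs-like class.

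Shares of cells above 0 are given with Clopper-Pearson 95% intervals, which cover counting error only. Epcam, at 25.3 corrected counts per cell in the pooled transit-amplifying-like, goblet-like, enterocyte-like and unnamed epithelial cells, was above 0 in 52.0% of CTFs-like cells at a mean of 0.866. A share above 0 was therefore read only beside the share in cells that should lack the gene. For most genes those were the same 2395 pooled epithelial cells of the wild-type library (median 3214 genes per cell), and in the reporter library the immune-like cells (median 1236 genes per cell). The fibroblast classes had medians of 2434, 2682 and 2796.5 genes per cell for CTFs-like, CBFs1-like and CBFs2-like in the wild-type library, and of 1455, 1391 and 1172.5 in the reporter library.

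The inhibitors were spread over several classes. In the wild-type library 8 of the 9 reached a mean of 0.05 in a named class, and 3 of these were highest in fibroblasts, Sfrp2 in CBFs1-like, Sfrp4 in CBFs2-like and Dkk3 in CTFs-like cells. The other 5 peaked elsewhere, Sfrp1, Sfrp5 and Frzb in glia-like, Wif1 in enteroendocrine-like and Dkk2 in blood endothelial-like cells. The places of Dkk2 and Frzb depended on the processing. Dkk2 was highest in CTFs-like cells under 4 alternatives, among them thinning to 2000 counts, and in pericyte-like cells with 15 principal components, and Frzb was highest in CBFs1-like cells without cells above 10% mitochondrial counts. In the reporter library, which was sorted for fibroblasts, 6 of the 7 listed genes reached the minimum and all 6 were highest in a fibroblast class. All named classes of that library except immune-like were fibroblasts. The counts of highest classes have no share over all genes beside them and describe single genes only.

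**Figure D1:**
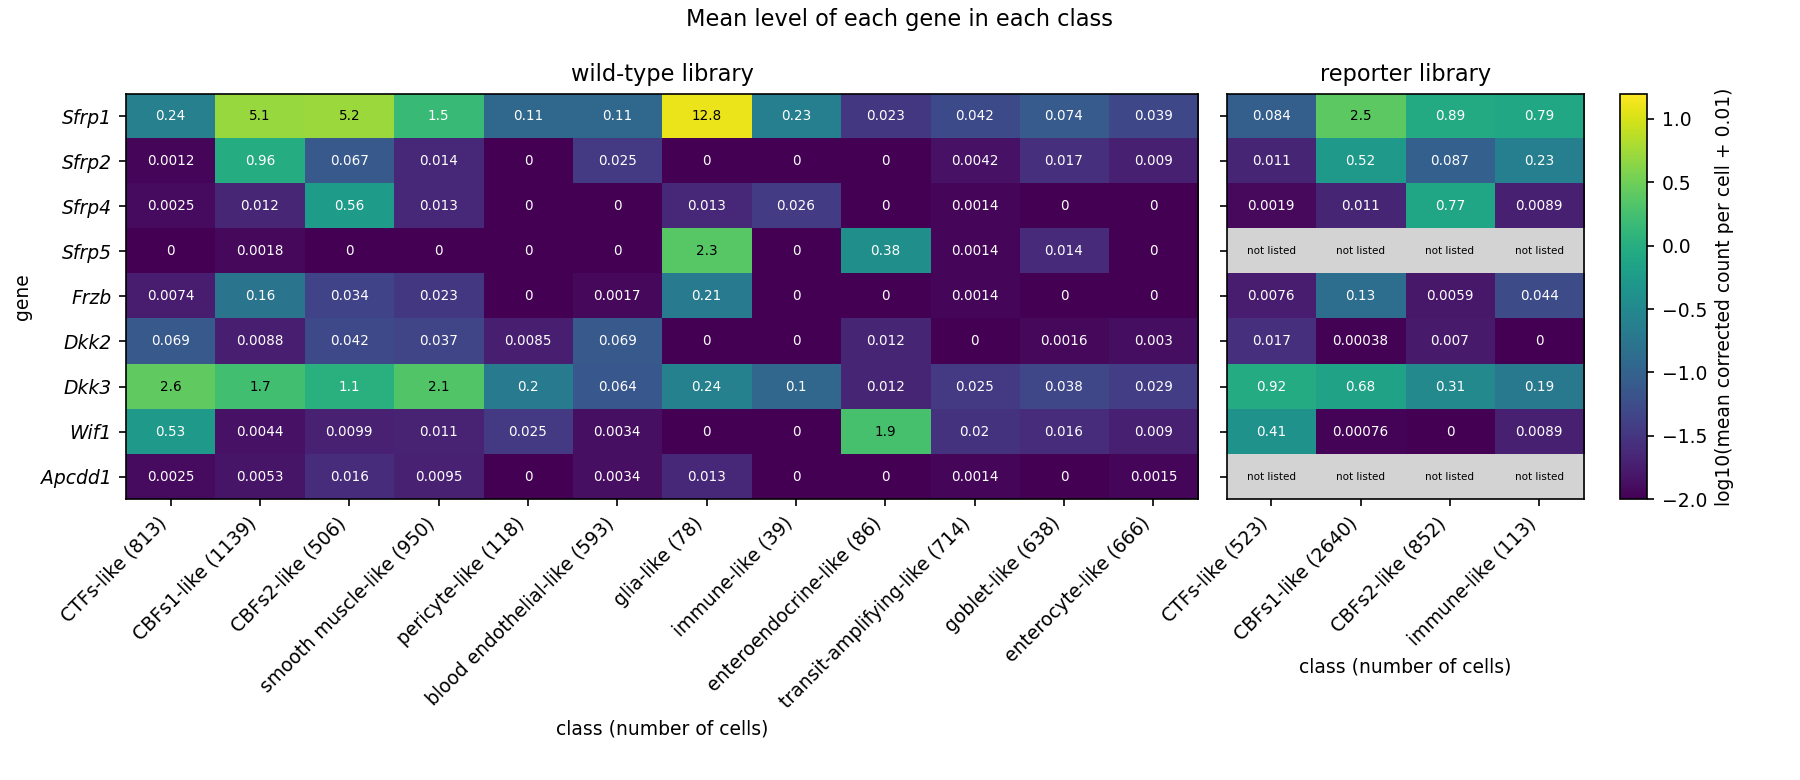
Mean corrected count per cell of each gene (rows) in each class (columns, with the number of cells), for the wild-type library on the left and the reporter library on the right. Colours show log10 of the mean plus 0.01, the printed values are the means themselves, and grey cells mark genes that were not listed. Sfrp1 reaches 12.8 in glia-like cells, and Wif1 is high in CTFs-like and enteroendocrine-like cells.

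Among the Wnt-binding inhibitors, Sfrp1 (chr8:23411502-23449632 on GRCm38, plus strand) had the highest level of all 9 genes. It averaged 12.8 corrected counts per cell (SD over cells 7.18) in glia-like, 5.19 (SD 6.21) in CBFs2-like, 5.11 (SD 5.25) in CBFs1-like and 1.46 (SD 1.98) in smooth muscle-like cells. In CTFs-like cells the mean was 0.241 (SD 0.761), and in the other 7 named classes it lay between 0.0233 and 0.231. Smooth muscle-like cells also carried 32.2% of the summed fibroblast marker level of CBFs1-like cells, and the part of this in their Sfrp1 level was not tested. It was above 0 in 97.4% of glia-like cells (91.0 to 99.7%), in 87.6% of CBFs1-like cells (85.6 to 89.5%) and in 14.3% of CTFs-like cells (11.9 to 16.9%), against 1.88% of the pooled epithelial cells. The means of CBFs2-like and CBFs1-like cells were within 1.02-fold of each other, although fewer CBFs2-like cells were above 0 (74.3%, 70.3 to 78.1%), while all other steps among the 5 highest classes exceeded 2-fold. Below smooth muscle-like cells, the share intervals of each pair of neighbouring classes overlapped. Sfrp1 in the reporter library averaged 2.50 in CBFs1-like (SD 2.34), 0.891 in CBFs2-like (SD 1.67) and 0.0841 in CTFs-like cells (SD 0.362). There it was also above 0 in 37.2% of immune-like cells (28.3 to 46.8%), close to the 38.0% (34.8 to 41.4%) of CBFs2-like cells, although the interval in CTFs-like cells was 4.54 to 8.97%. The CBFs2-like share thus stood above that of CTFs-like but not that of immune-like cells. It also stood above the 13.7% (5.70 to 26.3%) in the unnamed reporter cluster of 51 cells, in which 10 of 10 epithelial markers passed 2-fold. The immune-like cells of the reporter library carried 36.5% of the summed fibroblast marker level of CBFs1-like cells, with Dcn the most abundant and none of the 10 markers at 0, and the part of this in the Sfrp1 share was not tested.

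The glia-like level of Sfrp1 was 251% of the CBFs1-like level. Glia-like cells also held fibroblast markers, 10 of 10 at a mean of 0.05 or more, with a summed level of 32.7 that was 13.95% of that in CBFs1-like cells, and Col3a1 the most abundant at 8.59. Sfrp2 was at 0 in the 78 glia-like cells, which allows up to 3.85% of cells above 0, although CBFs1-like cells averaged 0.960. The part of carried-over fibroblast RNA in the glia-like Sfrp1 level was not tested.

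Sfrp2 (chr3:83766321-83774316, plus strand) was a CBFs1-like gene, with a mean of 0.960 (SD 2.90) and 21.3% of cells above 0 (19.0 to 23.8%). Its mean was 14.3-fold above the next class, CBFs2-like, at 0.0672 (SD 0.580), and the other 10 classes averaged 0.0253 or less. A single CTFs-like cell of 813 was above 0. The epithelial share was 0.919%, and the intervals of CBFs2-like cells and of the classes after it overlapped from neighbour to neighbour. Sfrp2 in the reporter library averaged 0.523 (SD 1.47) in CBFs1-like, 0.0869 (SD 0.599) in CBFs2-like and 0.0115 (SD 0.107) in CTFs-like cells. Within the reporter CBFs1-like class it was above 0 in 33.6% of the cluster led by Cxcl5 (29.6 to 37.8%) in 17.0% of the cluster led by Sbno2 (14.8 to 19.3%) and in 21.1% of the other cluster (18.6 to 23.8%). Their medians were 1869, 1243 and 1385 genes per cell, and after thinning to 2000 counts the shares were 23.9%, 13.9% and 15.9%. The CBFs2-like share of 3.76% lay under the immune-like share of 8.85% and over the CTFs-like share of 1.15%, and it was not read as expression.

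Sfrp4 (chr13:19623104-19632994, plus strand) marked the other crypt bottom class. It averaged 0.563 (SD 2.53) in CBFs2-like cells, with 20.4% above 0 (16.9 to 24.1%), and no more than 0.0256 in any other named class. Only 1 of the 2395 epithelial cells was above 0. The CBFs2-like mean of the reporter library was 0.765 (SD 2.09) with 26.9% above 0 (23.9 to 30.0%), and the CBFs1-like mean was 0.0114 (SD 0.113). Immune-like cells of that library were above 0 in 0.885%, so the CBFs2-like share stood clear of background in both libraries.

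Sfrp5 (chr19:42197971-42202252, minus strand) was hardly detected in fibroblasts, with 2 cells above 0 among 1645 CBFs-like cells. No cell was above 0 among 813 CTFs-like cells, which allows a share above 0 of up to 0.369%. It averaged 2.30 (SD 2.75) in glia-like cells, with 70.5% above 0 (59.1 to 80.3%). Enteroendocrine-like cells followed at 0.384 (SD 0.7995) and 25.6% above 0 (16.8 to 36.1%). Goblet-like cells came next at 0.0141, and the share in all pooled epithelial cells was 0.251%. Sfrp5 shared its glia-like peak with Sfrp1 and Frzb, and differed from both in its level in enteroendocrine-like cells.

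Frzb (chr2:80411970-80447625, minus strand), a relative of the Sfrp genes, averaged 0.205 (SD 0.589) in glia-like and 0.158 (SD 0.461) in CBFs1-like cells, 2 levels whose share intervals overlapped. The share above 0 was 12.8% (6.32 to 22.3%) in glia-like and 12.6% (10.7 to 14.6%) in CBFs1-like cells, against 0.0835% of the epithelial cells. CBFs2-like cells averaged 0.0336, smooth muscle-like 0.0232 and CTFs-like 0.00738. Frzb in the reporter library averaged 0.135 (SD 0.397) in CBFs1-like cells, with 11.5% above 0 (10.3 to 12.8%) against 4.43% of immune-like cells. Its CTFs-like and CBFs2-like means there, 0.00765 and 0.00587, had overlapping share intervals.

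Wif1 (chr10:121033960-121100650, plus strand) binds Wnt proteins through a domain unlike that of the Sfrp family. It averaged 1.86 (SD 3.39) in enteroendocrine-like cells, with 37.2% above 0 (27.0 to 48.3%), and 0.534 (SD 1.39) in CTFs-like cells, with 21.4% above 0 (18.6 to 24.4%). The step between these classes was 3.48-fold, and that from CTFs-like to the next class, pericyte-like, was 21.0-fold. All other named classes averaged 0.0254 or less, and 1.13% of the pooled epithelial cells were above 0. Wif1 in the reporter library averaged 0.413 (SD 0.974) in CTFs-like cells, with 25.2% above 0 (21.6 to 29.2%), against 0.885% of immune-like cells. Among crypt fibroblasts, Wif1 was thus a gene of the CTFs-like class in both libraries.

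Of the Dickkopf genes, Dkk3 (chr7:112116017-112159057, minus strand) was found across the fibroblasts and smooth muscle. Its mean was 2.61 (SD 2.01) in CTFs-like, 2.11 (SD 1.77) in smooth muscle-like, 1.69 (SD 1.53) in CBFs1-like and 1.07 (SD 1.34) in CBFs2-like cells. Each step in this order was under 2-fold, and the share intervals of CTFs-like and smooth muscle-like cells overlapped, as did those of smooth muscle-like and CBFs1-like cells. The next class, glia-like, was 4.40-fold below CBFs2-like cells at 0.244. Dkk3 was above 0 in 83.3% of CTFs-like cells (80.5 to 85.8%) and in 2.17% of the pooled epithelial cells. For the reporter library the order of the fibroblast classes was again CTFs-like at 0.916 (SD 1.05), CBFs1-like at 0.681 (SD 0.886) and CBFs2-like at 0.312 (SD 0.723), with 54.7% of CTFs-like, 46.7% of CBFs1-like and 21.1% of CBFs2-like cells above 0. The CBFs2-like interval overlapped that of immune-like cells, of which 17 of 113 were above 0.

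Dkk2 (chr3:132085292-132180304, plus strand), which blocks the Lrp co-receptors, was sparse. It averaged 0.0691 (SD 0.439) in blood endothelial-like and 0.0689 (SD 0.466) in CTFs-like cells, levels within 1.00-fold of each other. The shares above 0 were 4.22% (2.75 to 6.16%) and 2.83% (1.80 to 4.22%), against 0.125% of the pooled epithelial cells. CBFs2-like cells averaged 0.0415 and smooth muscle-like cells 0.0368, with intervals that overlapped those of their neighbours. The highest Dkk2 mean of the reporter library was 0.0172 in CTFs-like cells, from 8 of 523 cells, which is under the minimum of 0.05.

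RefSeq promoters were examined here for 5 of the 9 genes, Sfrp2, Sfrp5, Frzb, Dkk2 and Wif1. That number does not show that RefSeq lacks promoters for genes outside these 5. The 300 bases around the start site, 250 before and 50 after it, are printed for the 4 that passed 2-fold between CTFs-like and CBFs-like cells below, on GRCm38.p6 and 5' to 3' on the strand of the gene. Capitals mark every match to 3 motifs on either strand. The first is CTTTGA, read from the opposite side as TCAAAG, the second is CTTTGT, read from the opposite side as ACAAAG, and the last is TATAAA, read from the opposite side as TTTATA. Both CTTTGA and CTTTGT are core letters of the TCF/LEF factors that act with beta-catenin. The motif CTTTGA was held by 16.0%, CTTTGT by 18.7% and TATAAA by 13.6% of 32851 promoters of this length, and 31.2% held CTTTGA or CTTTGT. The windows are Sfrp2 at chr3:83766071-83766370 (plus), Frzb at chr2:80447347-80447646 (minus), Dkk2 at chr3:132085042-132085341 (plus) and Wif1 at chr10:121033754-121034053 (plus). For Frzb and Wif1 the RefSeq start site lies inside the gene span given above, so part of the bases before it falls within that span.
Sfrp2: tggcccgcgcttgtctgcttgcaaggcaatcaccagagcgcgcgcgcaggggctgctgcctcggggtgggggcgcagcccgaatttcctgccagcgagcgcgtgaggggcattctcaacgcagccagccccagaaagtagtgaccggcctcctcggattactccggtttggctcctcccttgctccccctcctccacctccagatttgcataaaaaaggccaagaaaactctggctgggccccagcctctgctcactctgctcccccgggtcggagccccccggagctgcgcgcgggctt
Frzb: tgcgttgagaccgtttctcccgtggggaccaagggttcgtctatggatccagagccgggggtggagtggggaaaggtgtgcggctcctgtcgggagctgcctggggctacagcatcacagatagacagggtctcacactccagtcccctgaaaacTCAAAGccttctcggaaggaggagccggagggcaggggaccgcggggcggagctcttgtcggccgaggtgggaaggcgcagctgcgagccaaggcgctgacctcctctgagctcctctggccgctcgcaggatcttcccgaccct
Dkk2: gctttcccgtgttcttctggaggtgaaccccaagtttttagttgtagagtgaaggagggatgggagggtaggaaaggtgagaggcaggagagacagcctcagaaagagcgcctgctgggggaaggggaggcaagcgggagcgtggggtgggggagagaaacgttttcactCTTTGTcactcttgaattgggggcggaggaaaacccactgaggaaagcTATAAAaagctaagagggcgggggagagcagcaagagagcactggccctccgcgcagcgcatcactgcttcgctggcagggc
Wif1: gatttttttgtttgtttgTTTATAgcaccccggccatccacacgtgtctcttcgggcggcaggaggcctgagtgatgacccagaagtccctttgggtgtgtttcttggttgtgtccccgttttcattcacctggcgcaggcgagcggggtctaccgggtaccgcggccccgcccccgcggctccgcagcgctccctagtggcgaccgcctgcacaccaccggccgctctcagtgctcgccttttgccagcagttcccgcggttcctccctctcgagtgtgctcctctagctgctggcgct
Dkk2 held 1 CTTTGT and 1 TATAAA, Frzb held 1 CTTTGA, and Wif1 held 1 TATAAA. In the Sfrp2 window none of these letters were found. CG pairs numbered 22 in Sfrp2, 20 in Frzb, 11 in Dkk2 and 25 in Wif1, against a median of 7 over all promoters. A match describes letters and not a bound site.

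Apcdd1 (chr18:62922231-62961179, plus strand) reached no more than 0.0158 (SD 0.125) in any named class, in CBFs2-like cells, where 8 of 506 cells were above 0. Its share there, 1.58% (0.685 to 3.09%), lay above the 0.0835% (0.0101 to 0.301%) of the pooled epithelial cells, but its share intervals overlapped between all neighbours in the order of classes. Apcdd1 was therefore not placed in any class.

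The central comparison asks which inhibitors separate crypt top from crypt bottom fibroblasts. Ratios are log2 of the CTFs-like mean over the mean of all CBFs-like cells, with 0.01 added to each mean, and a gene counted only with a mean of at least 0.05 in 1 of the 2 classes. In the wild-type library Sfrp1 was 20.5-fold, Sfrp2 61.9-fold, Sfrp4 15.4-fold and Frzb 7.47-fold lower in CTFs-like cells, and Wif1 was 33.8-fold higher. The size of these folds depends on the pseudocount, since with 0.1 the log2 ratios were -3.94 for Sfrp1, -2.96 for Sfrp2, -1.46 for Sfrp4, -1.03 for Frzb and 2.58 for Wif1. The reporter library gave the same side for Sfrp1, Sfrp2, Sfrp4, Frzb and Wif1. With the pseudocount of 0.1, Frzb there fell short of 2-fold at -0.92, as did Dkk2 in the wild-type library at 0.51. By these ratios Wif1 was higher in CTFs-like cells and Sfrp1, Sfrp2, Sfrp4 and Frzb in CBFs-like cells, with Dkk3 found in both. The CBFs-like classes did not share all of these genes. Sfrp4 was above 0 in 1.14% of wild-type CBFs1-like cells, and Frzb in 0.587% of reporter CBFs2-like cells. Sfrp1 was also above 0 in 14.3% of wild-type CTFs-like cells.

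In the wild-type library 7 of the 9 genes could be counted. Of these, 2 were at least 2-fold higher in CTFs-like cells (Dkk2 and Wif1), where 5.38% of all 10037 genes were, and 4 were at least 2-fold lower (Sfrp1, Sfrp2, Sfrp4 and Frzb), where 7.73% were. The Dkk2 call ended without cells above 10% mitochondrial counts (0.79) and with a pseudocount of 0.1 (0.51). Dkk3 passed neither limit, and the median of the 7 was -2.90, beside -0.07 over all genes. In the reporter library 6 of the 7 listed genes could be counted. Wif1 alone was higher, where 6.06% of 7123 genes were, and the same 4 genes were lower, where 6.19% were, with a median of -3.39 beside 0.17 over all genes. Calls were equal for all 6 genes counted in both libraries, with the reporter cluster led by Ptprr and Nrg1 left out of the CTFs-like class. With it counted there, Frzb was no longer 2-fold lower in that library. These calls describe single genes, since the 9 were not drawn at random.

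For Sfrp1, the log2 ratio was -4.36 (-4.56 to -4.16) in the wild-type and -4.49 (-4.89 to -4.10) in the reporter library, where intervals cover counting error only. For Sfrp2, it was -5.95 (-6.12 to -5.36), from 1 corrected count in CTFs-like cells, and -4.31 (-4.91 to -3.60). For Sfrp4, it was -3.94 (-4.23 to -3.33), from 2 counts, and -4.11 (-4.36 to -3.31), from 1 count. These intervals lay beyond 2-fold in both libraries, as did those of Frzb and Wif1 that follow. For Frzb, it was -2.90 (-3.38 to -2.28) and -2.68 (-3.24 to -1.92). For Wif1, it was 5.08 (4.66 to 5.41) and 5.32 (5.10 to 5.40), the latter against 2 corrected counts in 3492 CBFs-like cells. For Dkk3, it was 0.79 (0.71 to 0.88) and 0.62 (0.48 to 0.77), higher in CTFs-like cells but short of 2-fold in both, although thinning to 2000 counts brought the wild-type value to 1.02. For Dkk2, it was 1.45 (0.95 to 1.93) in the wild-type library, with an interval reaching below 2-fold and 23 CTFs-like cells behind it, and 1.18 (0.53 to 1.66) in the reporter library, where Dkk2 was under the minimum.

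The reference mattered where the CBFs-like classes differed. Against CBFs1-like cells alone Sfrp4 was at -0.84 in both libraries and no longer 2-fold lower, and against CBFs2-like cells alone Frzb was at -1.33 in the wild-type library and at 0.15 in the reporter library. Against CBFs2-like cells alone Dkk3 passed 2-fold, at 1.28 and 1.52, and Dkk2 fell to 0.62 in the wild-type library. With the reporter cluster led by Ptprr and Nrg1 counted as CTFs-like, an alternative chosen after seeing the data, Sfrp1 moved to -1.62 and Frzb to -0.94. Means of natural log values kept all signs, with Sfrp1 at -1.87 and -1.20, but on that scale a gene with a mean under 1 cannot reach 2-fold, so calls were not read from it.

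**Figure D2:**
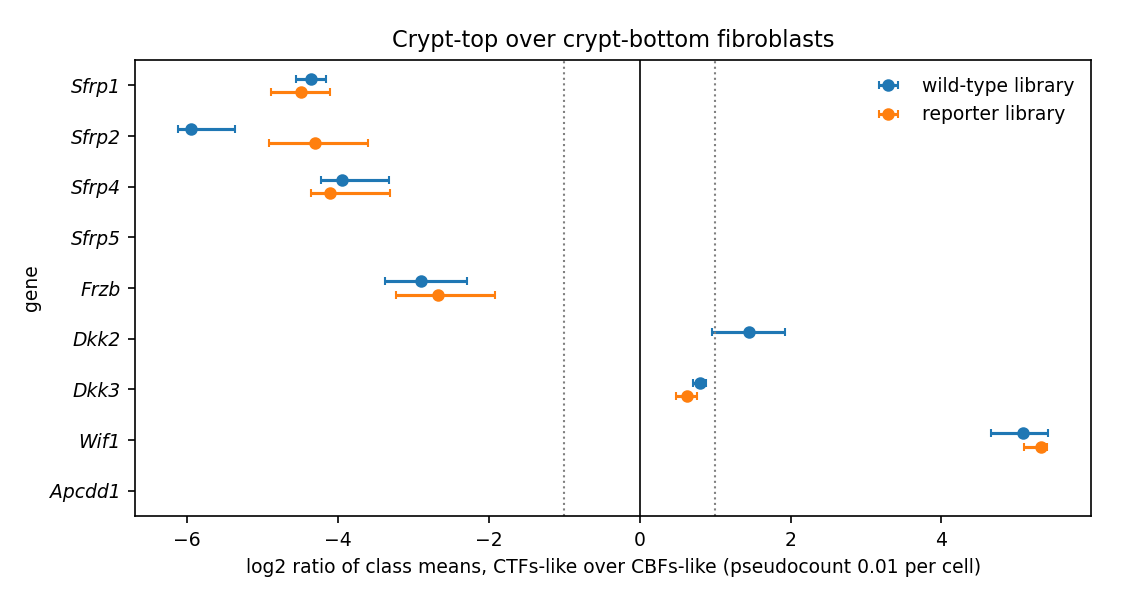
Log2 ratio of the CTFs-like over the CBFs-like mean for each gene (vertical axis), in the wild-type library (blue) and the reporter library (orange), for genes that reached the minimum mean. Bars are 95% intervals of the counts, and dotted lines mark 2-fold. Sfrp1, Sfrp2, Sfrp4 and Frzb lie to the left in both libraries and Wif1 to the right, with Dkk3 between the dotted lines.

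The 2 crypt bottom classes differed at least 2-fold in Sfrp4, Sfrp2 and Frzb in both libraries. Sfrp4 was 25.7-fold higher in CBFs2-like than in CBFs1-like cells of the wild-type library and 36.3-fold higher in the reporter library, while Sfrp2 was 12.6-fold and 5.50-fold lower. In the wild-type library 5 of the 9 genes could be counted, with 1 at least 2-fold higher (Sfrp4), where 6.56% of 10126 genes were, and 2 at least 2-fold lower (Sfrp2 and Frzb), where 3.77% were. In the reporter library 5 of the 7 listed genes could be counted, with Sfrp4 higher, where 4.13% of 6779 genes were, and 4 lower, where 6.02% were. These 4 were Sfrp1, Sfrp2, Frzb and Dkk3. The log2 ratio of Sfrp4 was 4.68 (4.20 to 5.13) and 5.18 (4.87 to 5.47) in the wild-type and reporter libraries. The ratio of Sfrp2 was -3.65 (-4.11 to -3.21) and -2.46 (-2.78 to -2.15). The ratio of Frzb was -1.95 (-2.54 to -1.36) and -3.19 (-3.61 to -2.59). Dkk3 was lower in CBFs2-like cells of both libraries, at -0.66 (-0.79 to -0.52) and -1.10 (-1.29 to -0.92). Sfrp1 set the libraries apart, with 0.02 (-0.04 to 0.09) in the wild-type and -1.48 (-1.58 to -1.37) in the reporter library.

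Smooth muscle-like cells shared Dkk3 with CTFs-like cells and differed in Sfrp1 and Wif1. Of the 9 genes 4 could be counted between these classes. Sfrp1 was 5.87-fold higher in smooth muscle-like cells, at 2.55 (2.34 to 2.77), 1 gene where 8.12% of 9898 genes were at least 2-fold higher. Wif1 was 26.5-fold lower, at -4.73 (-5.19 to -4.19), 1 gene where 8.39% were at least 2-fold lower. Dkk3 at -0.31 (-0.40 to -0.22) and Dkk2 at -0.75 (-1.27 to -0.22) passed neither limit.

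The make-up of the summed inhibitor level set the classes apart as well. The 9 genes summed to 15.6 corrected counts per cell in glia-like, 7.95 for CBFs1-like and 6.99 for CBFs2-like cells, with lower sums of 3.68 (smooth muscle-like), 3.47 (CTFs-like) and 2.29 (enteroendocrine-like). In the other 6 named classes of the wild-type library the sum was 0.0901 to 0.359. Sfrp1 made up 64.2% of the sum in CBFs1-like, 74.2% in CBFs2-like and 82.3% in glia-like cells. Dkk3 took 75.3% of the CTFs-like sum and 57.3% of the smooth muscle-like sum, and Wif1 took 81.2% of the enteroendocrine-like sum. For the reporter library, Dkk3 made up 63.1% of the CTFs-like sum of 1.45 and Sfrp1 64.9% of the CBFs1-like sum of 3.85. In CBFs2-like cells of that library the sum was 2.07, of which Sfrp1 took 43.1% and Sfrp4 37.0%.

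**Figure D3:**
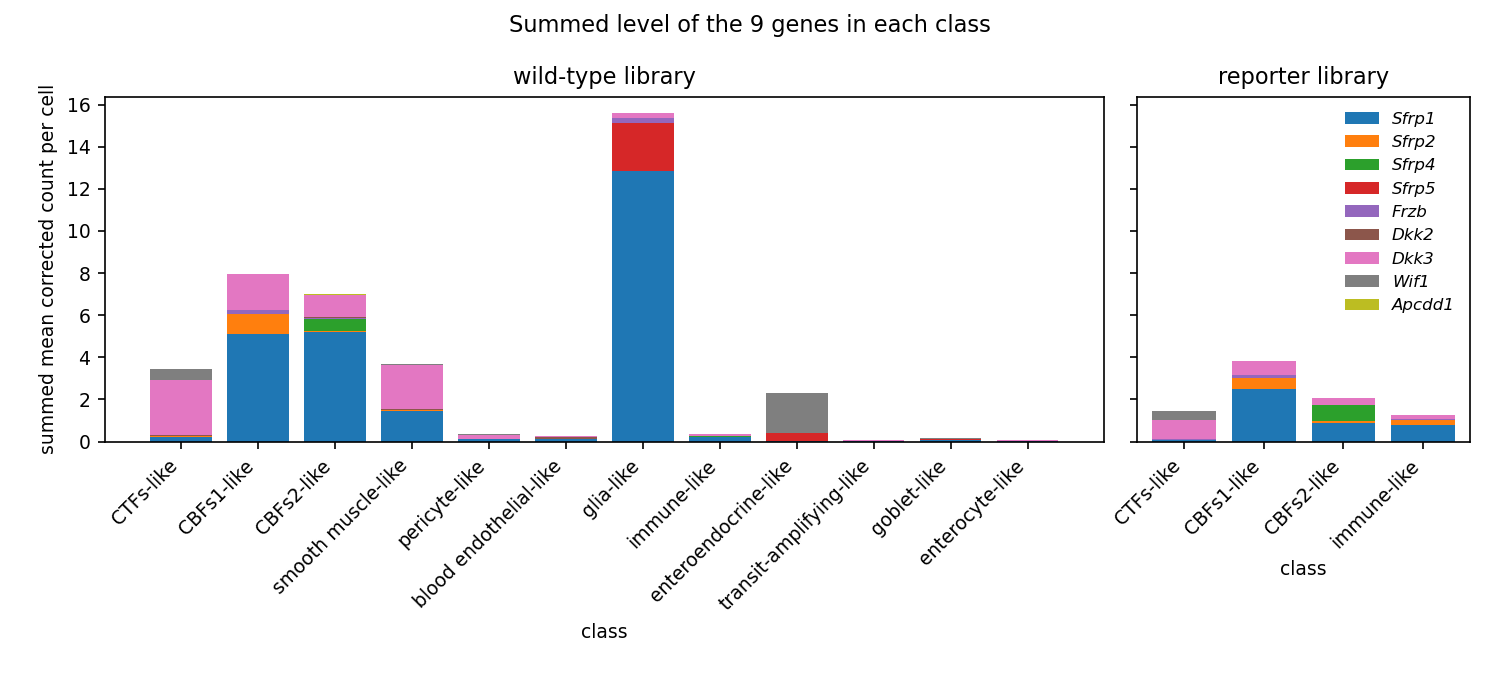
Summed mean corrected count per cell of the 9 genes in each class (bars stacked by gene), with the wild-type library on the left and the reporter library on the right on the same vertical axis. Sfrp1 fills most of the bars of CBFs1-like and glia-like cells and of wild-type CBFs2-like cells, Dkk3 that of CTFs-like cells and Wif1 that of enteroendocrine-like cells.

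Most crypt fibroblasts held at least 1 of the inhibitors, as did glia-like, smooth muscle-like and enteroendocrine-like cells. At least 1 of the 9 was above 0 in 97.6% of CBFs1-like (96.6 to 98.4%), 90.5% of CBFs2-like (87.6 to 92.9%) and 88.3% of CTFs-like cells (85.9 to 90.4%) of the wild-type library, against 4.05% of enterocyte-like (2.69 to 5.84%), 5.32% of transit-amplifying-like and 7.52% of goblet-like cells. All 78 glia-like cells and 88.3% of smooth muscle-like cells (86.1 to 90.3%) held at least 1, as did 57.0% of enteroendocrine-like cells (45.9 to 67.6%). In reporter cells the shares were 92.2% of CBFs1-like, 70.2% of CTFs-like and 67.1% of CBFs2-like cells, against 45.1% of immune-like cells. Some pairs within a class differed and others did not. In wild-type CBFs2-like cells Dkk3 was above 0 in 56.3% of cells with Sfrp4 and in 56.6% of cells without it. In reporter CBFs2-like cells Sfrp4 was above 0 in 46.9% of cells with Sfrp2 and in 26.1% of cells without it. The former share rests on 15 of 32 cells, and Sfrp2 was not read as expression in that class. In wild-type CBFs1-like cells Frzb was above 0 in 4.94% of cells with Sfrp2 and in 14.6% of cells without it, and the 2 genes met in 12 of 1139 cells. In reporter CBFs1-like cells the corresponding shares were 9.53% and 12.1%, with 55 of 2640 cells holding both. In wild-type CTFs-like cells Wif1 was above 0 in 9.48% of cells with Sfrp1 and in 23.4% of cells without it, against 20.6% and 25.6% in the reporter library. In wild-type CBFs1-like cells Frzb was above 0 in 13.8% of cells with Sfrp1 and in 3.55% of cells without it, with closer shares of 11.8% and 10.4% in the reporter library. In CBFs2-like cells Sfrp4 was above 0 in 16.2% of cells with Sfrp1 and in 32.3% of cells without it in the wild-type library, and in 19.4% and 31.4% in the reporter library. These shares are descriptions of cells of 1 library each, and cells with and without a gene were not matched for genes detected per cell.

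Within the wild-type CTFs-like class, sub-clusters held different inhibitors. Sub-cluster 2 (126 cells, with Acta2 at 26.5 and Bmp3 at 3.20) had the highest Wif1 mean, 1.95, with 61.9% of cells above 0 (52.8 to 70.4%). Sub-cluster 0 (368 cells, Acta2 at 10.98) averaged 0.448, with 23.1% above 0 (18.9 to 27.8%). Sub-cluster 1 (252 cells, Ptprr at 1.60, Nrg1 at 3.30 and Pdgfra at 11.4) averaged 0.0278, with 1.98% above 0 (0.647 to 4.57%). Wif1 thus lay on the Acta2-high, Bmp3-high side of the class, with medians of 3055 genes per cell in sub-cluster 2, 2123.5 in sub-cluster 0 and 2859.5 in sub-cluster 1. Sfrp1 ran the other way, at 0.472 in sub-cluster 1, with 27.4% above 0 (22.0 to 33.3%), and 0.0794 in sub-cluster 2, with 6.35% above 0 (2.78 to 12.1%). Dkk2 was at 0.175 in sub-cluster 2 and at 0 in the 252 cells of sub-cluster 1, which allows a share of up to 1.19%. Dkk3 stayed between 2.52 and 3.08 in these 3 sub-clusters. Sub-cluster 3 (67 cells) carried epithelial RNA, with Epcam at 3.37 (SD 3.47), and averaged 1.36 for Dkk3 and 0.239 for Wif1.

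The reporter library repeated the low Wif1 beside Ptprr and Nrg1 across clusters, but not the levels of Sfrp1 and Frzb. In the wild-type sub-cluster 1, Sfrp1 at 0.472 and Frzb at 0.0238 lay under the CBFs1-like means of 5.11 and 0.158. The unnamed reporter cluster led by Ptprr, Agt and Nrg1 averaged 2.03 for Sfrp1 (SD 2.52), 1.10 for Dkk3 (SD 1.07) and 0.144 for Frzb (SD 0.4495). Reporter CBFs1-like cells averaged 2.50, 0.681 and 0.135 for these genes. Wif1 was above 0 in 2 of the 230 cells of the unnamed cluster. The reporter CTFs-like class split into sub-clusters of 262 and 261 cells, with Wif1 at 0.515 in the first and at 0.310 in the second, which had Atf3 at 2.37.

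Enteroendocrine-like cells were split after their Wif1 level had been seen. A sub-cluster of 30 cells led by Insl5, Ppy and Pyy averaged 0.1 for Wif1, with 1 cell above 0. The other sub-clusters, of 34 cells led by Cntnap2 and of 22 cells led by Il12a, averaged 2.09 and 3.91, with 17 of 34 cells and 14 of 22 cells above 0. Sfrp5 showed no such split, at 0.353, 0.4 and 0.409 in the sub-clusters of 34, 30 and 22 cells. Wif1 and Sfrp5 met in 7 of the 86 enteroendocrine-like cells.

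**Figure D4:**
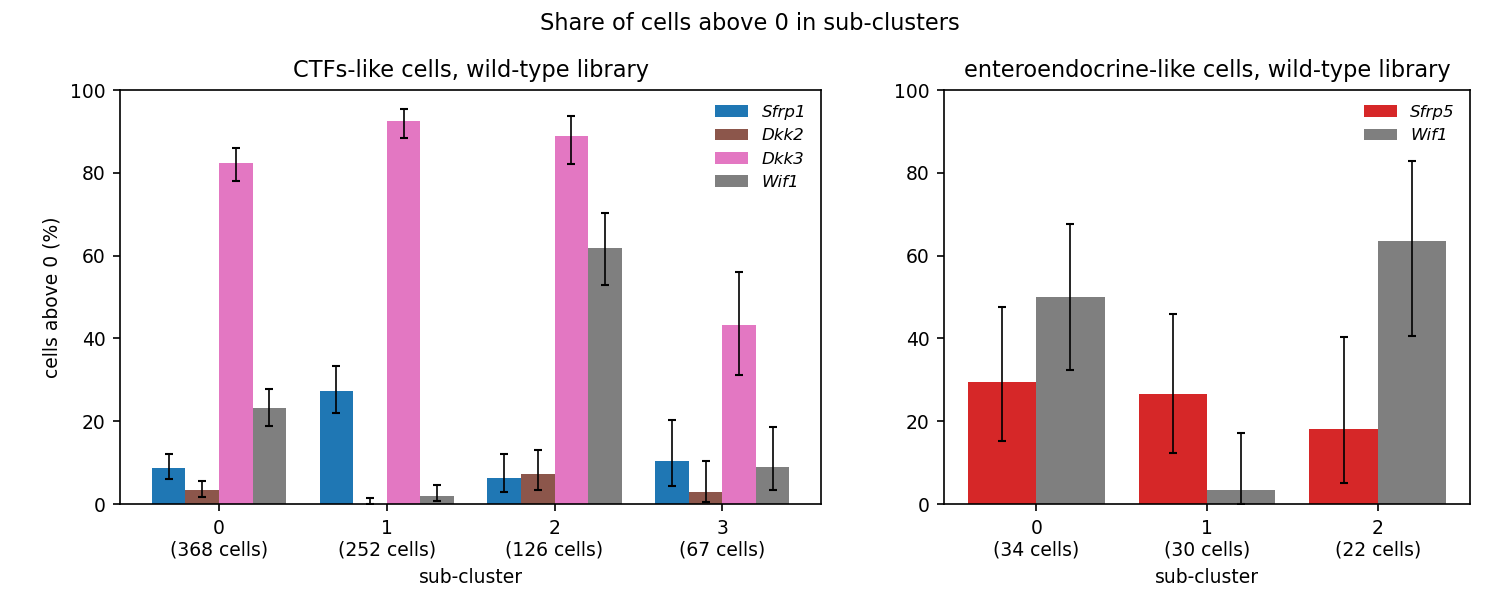
Share of cells above 0 (percent, vertical axis) for the genes named in the legend in the sub-clusters (with their number of cells) of wild-type CTFs-like cells (left) and enteroendocrine-like cells (right). Bars are shares and error bars are Clopper-Pearson 95% intervals. Wif1 is at 61.9% in CTFs-like sub-cluster 2 and at 1.98% in sub-cluster 1.

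Smooth muscle-like cells, also split after the data were seen, showed Dkk2 in 1 sub-cluster. In 105 cells that also held Ano1, Rgs5 and Rspo3 (Rspo3 mean 1.09), Dkk2 averaged 0.333, with 12.4% of cells above 0 (6.76 to 20.2%). In the other 4 sub-clusters, of 352, 351, 89 and 53 cells, Dkk2 was at 0, which allows shares of up to 0.852%, 0.855%, 3.37% and 5.66%. The sub-cluster of 89 cells carried epithelial RNA, with Epcam at 2.98 (SD 2.42). Sfrp1 averaged 2.17 in the sub-cluster with Dkk2 and 3.55 in the 53 cells that held Pdgfra at 2.60 and Cd34 at 3.04.

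For each gene that reached the minimum, the genes most like it were sought by Pearson correlation of log2(mean + 0.01) over the 12 wild-type classes among 14518 genes, as a description over classes of 1 library. For Sfrp1 they were C4b (0.952), Matn2 and Olfml1, and for Frzb Plpp7 (0.943), Lrrn2 and CT025619.3. For Sfrp2 they were Frmpd4 (0.949), the ligand gene Wnt2 and Pla2g2e, and for Sfrp4 Art4 (0.960), Ackr4 and Brinp3. For Sfrp5 they were Slc44a5 (0.996), Stk32a and Col9a2. For Wif1 they were Ogdhl (0.972), Il12a and AC156025.2, for Dkk3 Igsf10 (0.973), Emilin1 and Gm36962, and for Dkk2 Tmtc1 (0.894), Thbd and Chst2. Among the 8 genes that reached the minimum, Sfrp1 and Frzb were closest at 0.927 over 12 classes, and Sfrp1 and Wif1 farthest apart at -0.43.

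Other Wnt inhibitors were counted between the same classes. Of 15 further inhibitor genes listed in the wild-type library 6 could be counted, with 1 at least 2-fold higher in CTFs-like cells (5.38% of all genes) and 4 lower (7.73% of all genes). Igfbp4, a binding protein that blocks Frizzled and Lrp, was lower at -4.34, with 16.9 corrected counts per cell in CBFs1-like and 0.729 in CTFs-like cells. Trabd2b, a protease that cuts Wnt proteins, was lower at -3.17, Shisa3 at -2.85 and Tpbg at -1.25. Nkd1, which acts inside the cell, was higher at 1.83 and had its highest mean in smooth muscle-like cells (0.728). Kremen1, a Dickkopf receptor, passed neither limit at 0.62. Of 11 listed in the reporter library 4 could be counted, 0 higher (6.06% of all genes) and 3 lower (6.19% of all genes), with Igfbp4 at -3.90, Trabd2b at -1.89 and Tpbg at -1.24 lower and Kremen1 at 0.72 neither.

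Further inhibitor genes peaked outside the fibroblasts of the wild-type library. Glia-like cells held Sostdc1 at 6.54 and Nkd2 at 1.385 corrected counts per cell, beside their Sfrp1 and Sfrp5. Rnf43 (0.494), Znrf3 (0.268) and Shisa2 (0.650) were highest in transit-amplifying-like cells, Kremen2 (0.275) in enterocyte-like and Dkkl1 (0.0988) in goblet-like cells. Tpbg was highest in enteroendocrine-like cells (0.395), followed by CBFs2-like cells (0.326).

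Among Wnt ligands 8 of the 13 listed in the wild-type library could be counted, 1 higher and 4 lower in CTFs-like cells, where 5.38% and 7.73% of all genes were. The same percentages apply to the other wild-type counts of lists, and 6.06% higher and 6.19% lower to those of the reporter library. The 2 with the highest fibroblast means were Wnt5a, at 2.74 in CTFs-like against 0.270 for CBFs1-like and 0.401 for CBFs2-like cells, and Wnt4, at 2.36 in CBFs1-like cells with a ratio of 0.26. Of 10 listed in the reporter library 4 could be counted, 1 higher and 1 lower, with Wnt5a at 3.23 and Wnt4 at -0.69. The R-spondins Rspo3 and Rspo1, which strengthen Wnt signals, were both lower in the wild-type library, at -3.89 and -2.94, and Rspo3 at -2.16 was the only one counted in the reporter library. Of 17 receptor genes listed in the wild-type library 12 could be counted, 0 higher and 2 lower, with Ryk at 0.64 and Fzd1 at -1.64. Of 14 listed in the reporter library 8 could be counted, 2 higher and 2 lower, with Ryk at 0.50 and Fzd1 at -1.42. Of 11 Wnt target genes listed in the wild-type library 7 could be counted, 4 higher and 0 lower, with Cd44 at 2.30 and Ccnd1 at 2.05. Of 10 listed in the reporter library 4 could be counted, 1 higher and 1 lower, with Cd44 at 0.99 and Myc at -1.19.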

How the data were processed

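Single-cell RNA was measured in 1 wild-type and 1 reporter library. The score values as deposited, labelled raw, were taken as UMI counts that the authors corrected with SCTransform and kept as whole numbers, after Cell Ranger, Seurat 3.1 and R 3.6.2 on mm10 (per the submitters' processing notes). The natural log values deposited by the authors equal ln(1 + corrected count) in every cell (largest gap 5.3e-15), which, with the narrow totals, is why the whole numbers were not taken as raw counts. Applied to the corrected counts, the cell limits of the study's methods leave 7394 of the 7495 and 4407 of the 4409 deposited cells. The study set these limits before the correction, so these numbers do not repeat its filter. All deposited cells were kept.

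Cells were clustered in Seurat 5.3.0 under R 4.3.3 on the log values, with 30 principal components and resolutions of 0.45 (wild-type) and 0.3 (reporter), on 2969 and 2971 of 3000 variable features, since 31 and 29 Wnt genes (7 and 6 of the 9) were removed. Clusters were named from 19 marker lists. The naming rule was settled after the clusters, and some values of the 9 genes, had been seen, in at least 4 versions (a marker minimum raised from 5 to 6, a rule on the 10 leading genes, a minimum of 30 cells, and a log2 gap of 0.7 between fibroblast types, which leaves the reporter cluster led by Ptprr unnamed), while the lists stayed as they were. The members and lists were chosen with earlier results of these data known. Sub-clusters used 15 principal components and resolution 0.3 (0.8 for enteroendocrine-like cells), and those of smooth muscle-like and enteroendocrine-like cells were added after seeing the data.

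Levels are means of the corrected counts over the cells of a class. Ratios carry a pseudocount of 0.01 per mean, with an exact binomial interval on the summed counts. The intervals were first computed on another scale than the ratios, without the pseudocount, and this was corrected after the results of the alternatives had been seen, which lowered the number of ratios that left their interval. A share of 0 is given with the limit of 3 cells over the number of cells. This limit lies below the upper end of the Clopper-Pearson interval, and it concerns detection and not expression. Calculations ran under Python 3.11.15, with scanpy 1.11.5, scipy 1.17.1, numpy 2.4.6 and, for figures, matplotlib 3.10.9. The calculation of ratios was tested on simulated data. Coordinates are from GENCODE release M21.

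Genes named are the 9, markers, and the listed other inhibitors with a mean of at least 0.05 in a class. The 2 highest genes of each other Wnt list in fibroblasts were added. So were the 3 likest genes of each of the 8 that reached the minimum. Leading genes of clusters and sub-clusters were named after seeing the data.

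Doublets were called with Scrublet and kept. The default setting marked 7 wild-type cells (0.0934%), and an expected rate of 0.06 on log values with the automatic threshold marked 269 (3.59%), while both marked 5 (0.113%) in the reporter library. A score above 0.25, set by hand at first and later replaced by that threshold, marked 252 (3.36%) and 89 (2.02%). The planned comparison of proteins was not made, since no protein sequences were used here. The alternatives changed the resolution, components, features, cells, measure, depth, reference class, fold, minimum and pseudocount.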

Additional observations from a re-analysis of the deposited data

Results flagged for a closer look

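Sfrp1 in CBFs2-like over CBFs1-like cells had opposite signs in the 2 libraries, with a log2 ratio of 0.0241 for wild-type cells and -1.4753 for reporter cells. The difference was not tested, since each group is 1 library. The wild-type interval (-0.04 to 0.09) includes 0, so that library gave no direction. The means were 5.19 and 5.11 in the wild-type library and 0.891 and 2.50 in the reporter library. After each cell was thinned to 2000 corrected counts, they were 1.22 and 1.15 in the wild-type library and 0.595 and 1.57 in the reporter library. Sfrp1 was above 0 in 37.2% of the immune-like cells of the reporter library, and the part of this, of the kit and of the sort in the difference was not tested.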

How the results depend on the processing

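Counts of genes past 2-fold between CTFs-like and CBFs-like cells, and of genes whose highest class stayed the same, were recomputed under 100 combinations of result and alternative, and 86 stayed within 1.5 times their value. Some of the 86 could not change or hardly could. No reporter cell was above 10% mitochondrial counts, so that alternative left the reporter library as it was. The default and the automatic Scrublet settings each removed only 5 reporter cells. Genes higher in CTFs-like cells of the wild-type library (2) fell to 1 without cells above 10% mitochondrial counts, with a fold of 3, with a minimum mean of 0.2 and with a pseudocount of 0.1. Against CBFs2-like cells alone the 2 were Dkk3 and Wif1, with Dkk2 at 0.62. After thinning to 2000 counts they were Dkk3 and Wif1 as well, but there Dkk2 stayed past 2-fold at 1.18 and left the count because its thinned mean was under the minimum of 0.05. Genes lower there (4) fell to 2 with a minimum of 0.2. They also fell to 2 after thinning, where Sfrp4 at -2.23 and Frzb at -1.82 stayed past 2-fold and their thinned means were under the minimum. In the reporter library, higher genes (1) rose to 2 against CBFs2-like cells alone, with a fold of 1.5 and with no minimum. Lower genes (4) fell to 2 with a minimum of 0.2. Counts on means of natural log values (higher 0 and lower 1 in each library) are part of the 100, but say nothing of stability, since a gene with a mean under 1 cannot reach 2-fold on that scale. The highest class changed in the wild-type library for 1 of 8 genes at a time. Dkk2 moved to CTFs-like cells with the Wnt genes kept among the features, after thinning, and without Scrublet doublets or cells with a score above 0.25, and to pericyte-like cells with 15 principal components. Frzb moved to CBFs1-like cells without cells above 10% mitochondrial counts. In the reporter library all 6 kept their class. Causes were not tested.

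Of 201 recomputed ratios of single genes, 138 stayed within the interval of their value, 62 left it and 1 changed sign, Frzb in the reporter library at 0.15 against CBFs2-like cells alone. The 138 include the reporter ratios under the mitochondrial alternative, which could not change. Leaving natural log values aside, Dkk2 ranged from 0.51 to 2.07 and fell to 0.79 without cells above 10% mitochondrial counts, and Wif1 from 2.58 to 5.68 (wild-type) and from 2.35 to 5.40 (reporter). Keeping the Wnt genes among the features moved reporter Sfrp1 to -1.64 and Frzb to -0.94, and a pseudocount of 0.1 moved reporter Frzb to -0.92, so that Frzb was no longer 2-fold lower and 3 genes were left. The alternatives added after seeing the data (2 other doublet settings, the reporter cluster led by Ptprr counted as CTFs-like, CBFs1-like clusters led by Sbno2 and Cxcl5 left out, and the CTFs-like sub-cluster with epithelial RNA left out) changed no count by over 1.5 times, while reporter Sfrp4 moved to -4.95 without those CBFs1-like clusters. No paired analysis was possible because each group is 1 library and no test was made. Apcdd1 in the wild-type library and Dkk2 in the reporter library were under the minimum mean and gave no counted ratio.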

Other observations

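Unnamed clusters of the wild-type library also held members of the list. A cluster of 20 cells led by Pcp4, Hand1 and Nog, with Myh11 at 5.80, averaged 1.5 for Sfrp4 (SD 2.95, 6 cells above 0) and 0.6 for Dkk2 (SD 1.35, 4 cells above 0), both above every named class of that library. A cluster of 99 cells led by Sema3g, Gal and Notch3, with markers of more than 1 class, averaged 0.182 for Dkk2, with 11.1% of cells above 0 (5.68 to 19.0%). A cluster of 176 cells led by Ccl21a, Mmrn1, Reln and Lyve1 averaged 2.06 for Sfrp1 (SD 3.76). It held fibroblast markers at 53.0% of their summed level in CBFs1-like cells, and their part in the Sfrp1 level was not tested.

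Blood endothelial-like cells consisted of 2 clusters. Dkk2 was above 0 in 4.65% (2.97 to 6.89%) of the 495 cells led by Esm1 and Kdr, and in 2.04% (0.248 to 7.18%) of the 98 cells led by Madcam1 and Selp, with overlapping intervals.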
